A study of Homo sapiens with 8 samples.

Results

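The genes described here are 30 genes of the endoplasmic reticulum (ER) that fold, load, repair or destroy proteins of the secretory pathway, or that sense and signal when unfolded proteins gather there. They were chosen as a named list, and all 30 were found among the 57736 gene identifiers that every library lists. RNA was sequenced in 8 libraries of LS174T cells, an established line from a human colon adenocarcinoma, in 4 groups of 2. Every group came from derivatives that make the Tet repressor and carry a hairpin construct which doxycycline switches on. The groups CON ASCL2 WT and DOX ASCL2 KD are the line with a hairpin against the intestinal stem cell factor ASCL2, without doxycycline and after 3 days in doxycycline at 1 ug/ml. The groups CON WiNTRLINC1 WT and DOX WiNTRLINC1 KD are the line with a hairpin against WiNTRLINC1, a long non-coding RNA, in the same 2 states. The study asked which genes change when either transcript is lost. WT in these names stands for cells that carry the hairpin and were not treated. Cells without a hairpin were not given doxycycline in these groups, so an effect of the drug cannot be told apart from that of the hairpin. Clones of WiNTRLINC1-hairpin cells were screened for knockdown by RT-PCR, so a difference between the lines cannot be told apart from a difference between clones. In all 8 samples the genotype label gives the opposite target from the title and source name, and the groups here follow the titles. Whether replicates were separate cultures is not in the labels, so the p-values measure the spread between these libraries, which may be technical only.

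Proteins bound for secretion or for membranes enter the ER through the SEC61 channel and are held by chaperones until they fold. BiP, the product of HSPA5, binds exposed hydrophobic stretches and works with J-domain co-chaperones and nucleotide exchange factors. Calnexin and calreticulin hold glycoproteins, and the disulfide isomerases form and shuffle disulfide bonds. Molecules that fail are pushed back to the cytosol and destroyed by the proteasome, which is called ER-associated degradation. When unfolded proteins accumulate, the sensors IRE1, ATF6 and PERK start the unfolded protein response. IRE1 splices the messenger of XBP1, ATF6 is cut in the Golgi to free a transcription factor, and both factors switch on chaperone and degradation genes. Goblet cells of the colon secrete large, disulfide-rich mucins and carry their own forms of this machinery, among them IRE1 beta (ERN2) and the disulfide isomerase AGR2.

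The promoters of these genes are known for the ER stress response elements, to which the factors of this response bind together with NF-Y, and the elements are shown here because they group the members by their sequence. RefSeq promoters of build GRCh38.p14, each running from 250 bases before to 50 bases after a start, were matched for 26 of the 30 genes and gave 33 promoters. The element ERSE was searched on both strands as CCAAT, any 9 bases and CCACG, and ERSE-II as ATTGG, any 1 base and CCACG. In the sequences below, read 5′ to 3′ along the strand of the gene, the 5-letter ends of each element are in capitals, with 20 bases on each side. Where the element lies on the other strand it reads CGTGG, the gap, then ATTGG for ERSE, or CGTGG, 1 base and CCAAT for ERSE-II.
HSPA5, chr9:125241371-125241429, minus strand: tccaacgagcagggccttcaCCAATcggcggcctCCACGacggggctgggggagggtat
HSP90B1 upstream copy, chr12:103930196-103930254, plus strand: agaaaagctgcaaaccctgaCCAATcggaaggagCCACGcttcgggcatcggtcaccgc
HSP90B1 downstream copy, chr12:103930301-103930359, plus strand: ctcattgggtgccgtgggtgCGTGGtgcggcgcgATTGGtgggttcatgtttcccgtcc
PDIA6, chr2:10812833-10812891, minus strand: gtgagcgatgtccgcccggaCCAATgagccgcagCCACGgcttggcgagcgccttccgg
CANX, chr5:179698758-179698816, plus strand: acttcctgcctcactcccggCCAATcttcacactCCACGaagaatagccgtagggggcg
CALR, chr19:12938364-12938422, plus strand: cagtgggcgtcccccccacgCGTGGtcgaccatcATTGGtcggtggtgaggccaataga
XBP1, chr22:28800583-28800641, minus strand: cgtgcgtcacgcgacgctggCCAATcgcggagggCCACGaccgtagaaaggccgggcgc
CRELD2, chr22:49918534-49918592, plus strand: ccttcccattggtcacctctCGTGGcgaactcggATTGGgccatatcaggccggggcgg
HYOU1 upstream copy, ERSE-II, chr11:119057360-119057410, minus strand: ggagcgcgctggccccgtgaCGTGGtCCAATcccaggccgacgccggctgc
HYOU1 downstream copy, ERSE-II, chr11:119057254-119057304, minus strand: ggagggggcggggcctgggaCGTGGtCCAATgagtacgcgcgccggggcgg
HERPUD1, chr16:56932005-56932055, plus strand: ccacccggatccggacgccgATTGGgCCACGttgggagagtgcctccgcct
SDF2L1, chr22:21642094-21642144, plus strand: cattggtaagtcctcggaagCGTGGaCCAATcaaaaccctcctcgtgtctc
The first 8 lines hold ERSE and the last 4 hold ERSE-II. The ERSE of HSPA5 spans bases 66 to 48 before its start, that of XBP1 52 to 34, and that of PDIA6 86 to 68. HSP90B1 holds 2 copies of ERSE in opposite orientation, and HYOU1 holds 2 copies of ERSE-II, both on the strand opposite to the gene. ERSE was present for 7 of the 26 genes, in 9 of their 33 promoters (27.3%). Several of these 9 are overlapping promoters of CANX that hold the same element, which is printed once above. Over all 35116 RefSeq promoters of this length, 27 held it (0.0769%), and over all 27305 gene symbols 25 did (0.0916%). ERSE-II was present for 3 of the 26 genes, and for 19 of all gene symbols (0.0696%). The core of the other response element of this pathway, TGACGTGG, was searched on both strands. Among the 26 it was found in HYOU1 alone, against 0.729% of all promoters. That copy spans bases 188 to 181 before the start and overlaps the upstream ERSE-II, which spans bases 185 to 175, in the shared CGTGG. The single CCACG was in 66.7% of the members' promoters and 38.1% of all, and the single CCAAT in 72.7% and 34.6%. A match is a description of these letters, not of binding. PDIA3, ERN2, DERL1 and DERL3 had no entry.

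Deposited totals ran from 21524463 to 22941231 per library, and 31503 to 33959 genes per library had a value above 0. The values are read counts that were scaled and rounded before deposit, and every value below is on that scale. ASCL2 (ENSG00000183734, chromosome 11), a target of 1 of the hairpins, held 2855 and 3373 untreated and 532 and 586 treated in ASCL2-hairpin cells, and 2540 and 2034 untreated and 805 and 697 treated in WiNTRLINC1-hairpin cells. It fell in both lines, so it does not settle which of the conflicting labels is right. All 9 colon epithelium markers were present in every group, with summed values from 93565 to 149618. The 6 fibroblast markers summed to 299 to 304 in untreated and 184 to 193 in treated ASCL2-hairpin cells. In WiNTRLINC1-hairpin cells they summed to 96 to 107 untreated and 94 to 135 treated. Of these markers COL1A1 held 200 and 222 untreated and 60 and 99 treated in ASCL2-hairpin cells. COL3A1 held 42 and 25 untreated and 41 and 26 treated there. In untreated WiNTRLINC1-hairpin cells COL1A1 was lower and LUM higher than in untreated ASCL2-hairpin cells. The 6 immune markers summed to 38 to 106 and the 4 endothelial markers to 13 to 35, and CLDN5 was at 0 in treated ASCL2-hairpin cells. The 17 goblet cell genes summed to 15331 to 16703 untreated and 11761 to 12684 treated in ASCL2-hairpin cells, and to 36069 to 38098 untreated and 46911 to 51528 treated in WiNTRLINC1-hairpin cells. The goblet sum moved with line and treatment. The fibroblast sum moved with line, and with treatment in ASCL2-hairpin cells only. The part of either sum in the results below was not tested. In bulk libraries, fewer cells that make a gene and less RNA of it per cell cannot be told apart.

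The 30 genes together took 0.508% to 0.512% of the summed values in untreated and 0.562% to 0.571% in treated ASCL2-hairpin cells. With the WiNTRLINC1 hairpin they took 0.628% to 0.658% untreated and 0.69% to 0.713% treated, so the 4 groups did not overlap and the order of the groups followed line first and treatment second. Per kilobase of exon (union of GENCODE 29 exons), the calcium-binding chaperone CALR led in both untreated lines, with a mean value per kb of 6830 in ASCL2-hairpin cells and 9110 in WiNTRLINC1-hairpin cells. In ASCL2-hairpin cells AGR2 followed with 3180 per kb, CANX with 2150 and HSPA5 with 2050. HSPA5 followed in WiNTRLINC1-hairpin cells with 3580 per kb, CANX with 3370 and SEC61A1 with 3040, and AGR2 stood at 1810. The sensors lay below these leading genes on this scale, to unlike degrees. ERN2 stood at 554 per kb in untreated ASCL2-hairpin cells and 354 in untreated WiNTRLINC1-hairpin cells. The chaperone HYOU1 stood at 336 and 672, so ERN2 was above it in the former and below it in the latter. ATF6 stood at 119 and 181, and ERN1, a close relative of ERN2 found in most tissues, at 28.4 and 36.7. DERL3, a derlin known mainly from secretory glands and plasma cells, never passed a value of 6 and was not tested, and 77.0% of its exon length overlaps SMARCB1 on the other strand. The other 29 genes reached a value of 10 in 2 or more libraries, which was the condition for testing.

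**Figure D1:**
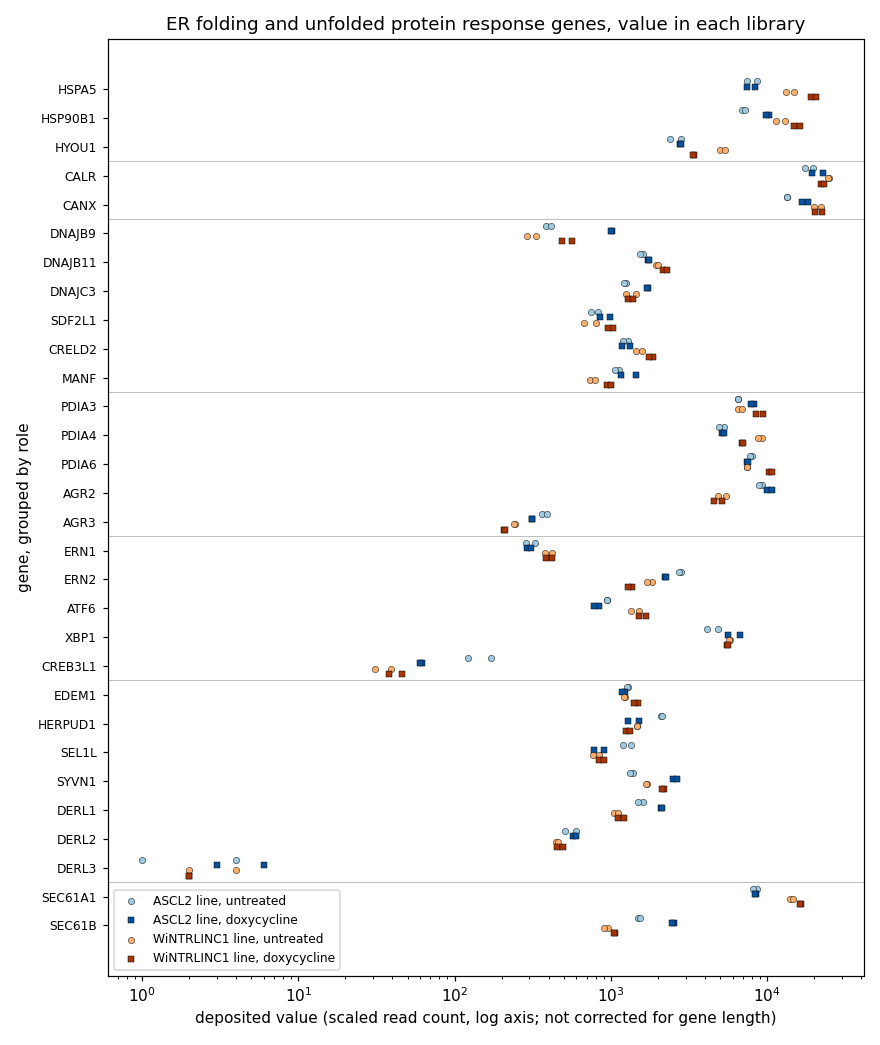
Deposited value of each of the 30 genes in each of the 8 libraries, on a log axis and not corrected for gene length, with genes grouped by role and 1 point per library. HSPA5 and SEC61A1 sit higher in all 4 libraries of the WiNTRLINC1 line, DNAJB9 sits higher in the treated than in the untreated libraries of each line, and AGR2, ERN2 and CREB3L1 sit lower in the WiNTRLINC1 line.

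Among the soluble chaperones, HSP90B1 rose with doxycycline in both lines, while HSPA5 rose and HYOU1 fell in WiNTRLINC1-hairpin cells. Changes are log2 fold changes of value + 1 with their standard error, from 2 libraries per group, tested with limma and adjusted by Benjamini-Hochberg over all 22100 genes tested. For HSPA5 (ENSG00000044574, chromosome 9) ASCL2-hairpin cells held 8640 and 7405 untreated and 8347 and 7391 with doxycycline, and WiNTRLINC1-hairpin cells 13155 and 14843 untreated and 18922 and 20437 with doxycycline. The treated libraries of WiNTRLINC1-hairpin cells were the highest of the 8, and in ASCL2-hairpin cells the groups overlapped. HSPA5, the main ER chaperone of the HSP70 family, was 1.41-fold higher with doxycycline in WiNTRLINC1-hairpin cells (log2 fold change 0.49 ± 0.0918, limma adjusted p = 0.00151). Its log2 fold change with the other hairpin was -0.03 ± 0.0918 (limma adjusted p = 0.868). The values of HSP90B1 (ENSG00000166598, chromosome 12) were 6857 and 7217 without and 10195 and 9766 with doxycycline in ASCL2-hairpin cells, against 11456 and 13047 without and 14889 and 16137 with it in WiNTRLINC1-hairpin cells. Treated libraries lay above untreated ones in each line. HSP90B1, which encodes the ER member of the HSP90 family, rose 1.42-fold in ASCL2-hairpin cells (log2 fold change 0.50 ± 0.0786, limma adjusted p = 0.000257). WiNTRLINC1-hairpin cells showed a rise of 1.27-fold (log2 fold change 0.34 ± 0.0786, limma adjusted p = 0.00665). The call of HSP90B1 was lost, by limma adjusted p, without untreated replicate 1 (0.0858) or treated replicate 2 (0.0931) of WiNTRLINC1-hairpin cells. The pseudogenes HSP90B2P and HSP90B3P held 33.6% of the summed value of HSP90B1, so reads may be split among near-identical copies. With the copies added the log2 ratio of group means was 0.526 in ASCL2-hairpin cells and 0.375 in WiNTRLINC1-hairpin cells. HYOU1 (ENSG00000149428, chromosome 11) stood at 2789 and 2389 in the untreated and 2783 and 2804 in the treated libraries of ASCL2-hairpin cells, and at 4969 and 5366 untreated and 3402 and 3349 treated in WiNTRLINC1-hairpin cells. Its untreated WiNTRLINC1 libraries were the highest of the 8, and the groups of ASCL2-hairpin cells overlapped. HYOU1, which helps BiP to release its substrate, fell 1.53-fold in WiNTRLINC1-hairpin cells (log2 fold change -0.61 ± 0.0821, limma adjusted p = 9.33e-05). Its log2 fold change with the other hairpin was 0.11 ± 0.0821 (limma adjusted p = 0.347).

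Of the lectin chaperones, CANX rose in ASCL2-hairpin cells and neither was called in WiNTRLINC1-hairpin cells. For CANX (ENSG00000127022, chromosome 5) ASCL2-hairpin cells held 13342 and 13466 untreated and 18172 and 16617 with doxycycline, and WiNTRLINC1-hairpin cells 19952 and 22117 untreated and 20196 and 22248 with doxycycline. In ASCL2-hairpin cells the treated libraries lay above the untreated ones, and the groups of WiNTRLINC1-hairpin cells overlapped. CANX encodes calnexin, the membrane-bound lectin chaperone, and rose 1.3-fold in ASCL2-hairpin cells (log2 fold change 0.37 ± 0.0793, limma adjusted p = 0.0027). Its log2 fold change with the other hairpin was 0.01 ± 0.0793 (limma adjusted p = 0.941). The values of CALR (ENSG00000179218, chromosome 19) were 19494 and 17559 without and 19348 and 22817 with doxycycline in ASCL2-hairpin cells, against 24898 and 24573 without and 22219 and 22947 with it in WiNTRLINC1-hairpin cells. Treated values overlapped the untreated ones in ASCL2-hairpin cells and lay below them in WiNTRLINC1-hairpin cells. CALR encodes calreticulin, the soluble counterpart of calnexin. Its log2 fold change was 0.18 ± 0.0847 in ASCL2-hairpin cells (limma adjusted p = 0.129) and -0.13 ± 0.0847 in WiNTRLINC1-hairpin cells (limma adjusted p = 0.332).

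The co-chaperone DNAJB9 showed the largest fold increase of the 29 genes in either line. DNAJB9 (ENSG00000128590, chromosome 7) stood at 382 and 412 in the untreated and 1011 and 996 in the treated libraries of ASCL2-hairpin cells, and at 292 and 330 untreated and 486 and 563 treated in WiNTRLINC1-hairpin cells. Treated libraries were above untreated ones in each line, and the treated ASCL2 libraries were the highest of the 8. DNAJB9 encodes a J-domain partner of BiP that also binds the lumenal domain of IRE1 and restrains it. It rose 2.53-fold in ASCL2-hairpin cells (log2 fold change 1.34 ± 0.112, limma adjusted p = 8.42e-07) and 1.68-fold in WiNTRLINC1-hairpin cells (log2 fold change 0.75 ± 0.112, limma adjusted p = 0.000253). Its exons overlap the oppositely transcribed PNPLA8 over 3.49% and THAP5 over 6.45% of their length, and the use of strand in the counting is not given in the sources used here. THAP5 had log2 fold changes of 0.37 in ASCL2-hairpin cells and 0.04 in WiNTRLINC1-hairpin cells, and PNPLA8 0.30 and 0.05. For DNAJC3 (ENSG00000102580, chromosome 13) ASCL2-hairpin cells held 1251 and 1216 untreated and 1714 and 1710 with doxycycline, and WiNTRLINC1-hairpin cells 1240 and 1441 untreated and 1281 and 1380 with doxycycline. The treated ASCL2 libraries stood above the other 6. DNAJC3, another J-domain co-chaperone of BiP, rose 1.39-fold in ASCL2-hairpin cells (log2 fold change 0.47 ± 0.0888, limma adjusted p = 0.00111), and its log2 fold change was -0.01 ± 0.0888 in WiNTRLINC1-hairpin cells (limma adjusted p = 0.969).

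SDF2L1 and MANF rose in WiNTRLINC1-hairpin cells, and both calls depended on single libraries. The values of SDF2L1 (ENSG00000128228, chromosome 22) were 824 and 748 without and 847 and 991 with doxycycline in ASCL2-hairpin cells, against 805 and 674 without and 1037 and 954 with it in WiNTRLINC1-hairpin cells. Treated libraries lay above untreated ones in each line. SDF2L1, a partner of J-domain co-chaperones, rose 1.35-fold in WiNTRLINC1-hairpin cells (log2 fold change 0.43 ± 0.111, limma adjusted p = 0.0131), and its log2 fold change in ASCL2-hairpin cells were 0.22 ± 0.111 (limma adjusted p = 0.164). The call of SDF2L1 was lost, by limma adjusted p, without untreated replicate 2 (0.14) or treated replicate 1 (0.111) of WiNTRLINC1-hairpin cells. MANF (ENSG00000145050, chromosome 3) stood at 1120 and 1057 in the untreated and 1159 and 1442 in the treated libraries of ASCL2-hairpin cells, and at 732 and 795 untreated and 941 and 1005 treated in WiNTRLINC1-hairpin cells. Here too the treated libraries were above the untreated ones in each line, and WiNTRLINC1-hairpin cells were lower. MANF, a small secreted protein that binds BiP, rose 1.27-fold in WiNTRLINC1-hairpin cells (log2 fold change 0.35 ± 0.105, limma adjusted p = 0.0307), and its log2 fold change in ASCL2-hairpin cells were 0.25 ± 0.105 (limma adjusted p = 0.0979). The call of MANF was lost, by limma adjusted p, without untreated replicate 1 (0.181), untreated replicate 2 (0.0565), treated replicate 1 (0.0751) or treated replicate 2 (0.189) of WiNTRLINC1-hairpin cells. For DNAJB11 (ENSG00000090520, chromosome 3) ASCL2-hairpin cells held 1608 and 1525 untreated and 1736 and 1745 with doxycycline, and WiNTRLINC1-hairpin cells 1945 and 2004 untreated and 2159 and 2277 with doxycycline. DNAJB11, a soluble J-domain protein that hands substrates to BiP, had log2 fold changes of 0.15 ± 0.0758 in ASCL2-hairpin cells and 0.17 ± 0.0758 in WiNTRLINC1-hairpin cells (limma adjusted p = 0.161 and 0.152), with treated above untreated libraries in each. The values of CRELD2 (ENSG00000184164, chromosome 22) were 1295 and 1193 without and 1328 and 1174 with doxycycline in ASCL2-hairpin cells, against 1570 and 1452 without and 1852 and 1756 with it in WiNTRLINC1-hairpin cells. CRELD2, an ER stress-inducible protein, had 0.01 ± 0.0892 and 0.26 ± 0.0892 (limma adjusted p = 0.969 and 0.0604). Its groups overlapped in ASCL2-hairpin cells and not in WiNTRLINC1-hairpin cells.

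The disulfide isomerases divided in WiNTRLINC1-hairpin cells, where PDIA3 and PDIA6 rose and PDIA4 fell. PDIA6 (ENSG00000143870, chromosome 2) stood at 8012 and 7759 in the untreated and 7443 and 7485 in the treated libraries of ASCL2-hairpin cells, and at 7399 and 7406 untreated and 10266 and 10687 treated in WiNTRLINC1-hairpin cells. The treated WiNTRLINC1 libraries stood above the other 6, which lay between 7399 and 8012. PDIA6 rose 1.41-fold there (log2 fold change 0.50 ± 0.0662, limma adjusted p = 8.27e-05), and in ASCL2-hairpin cells its log2 fold change was -0.08 ± 0.0662 (limma adjusted p = 0.426). For PDIA4 (ENSG00000155660, chromosome 7) ASCL2-hairpin cells held 5310 and 4946 untreated and 5145 and 5311 with doxycycline, and WiNTRLINC1-hairpin cells 9290 and 8764 untreated and 6884 and 6999 with doxycycline. WiNTRLINC1-hairpin cells were higher than ASCL2-hairpin cells in both states, and in the former the treated libraries lay below the untreated ones. PDIA4 fell 1.3-fold in WiNTRLINC1-hairpin cells (log2 fold change -0.38 ± 0.0702, limma adjusted p = 0.00148) and had a log2 fold change of 0.03 ± 0.0702 in ASCL2-hairpin cells (limma adjusted p = 0.809). The values of PDIA3 (ENSG00000167004, chromosome 15) were 6459 and 6544 without and 8190 and 7912 with doxycycline in ASCL2-hairpin cells, against 6529 and 6851 without and 8496 and 9404 with it in WiNTRLINC1-hairpin cells. Treated libraries were above untreated ones in each line. PDIA3, which acts on glycoproteins held by calnexin and calreticulin, rose 1.24-fold in ASCL2-hairpin cells (log2 fold change 0.31 ± 0.0722, limma adjusted p = 0.00535) and 1.34-fold in WiNTRLINC1-hairpin cells (log2 fold change 0.42 ± 0.0722, limma adjusted p = 0.000813). The pseudogenes PDIA3P1 and PDIA3P2 held 62.2% of its summed value, so its level is uncertain. With them added, the log2 ratio of group means was 0.354 in ASCL2-hairpin cells and 0.446 in WiNTRLINC1-hairpin cells.

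The disulfide isomerases AGR2 and AGR3 were called with doxycycline in neither line. AGR2 (ENSG00000106541, chromosome 7) stood at 9257 and 8847 in the untreated and 9977 and 10680 in the treated libraries of ASCL2-hairpin cells, and at 4866 and 5449 untreated and 4574 and 5116 treated in WiNTRLINC1-hairpin cells. ASCL2-hairpin cells were higher than WiNTRLINC1-hairpin cells in every library. AGR2, needed for mucin folding in the intestine, had log2 fold changes of 0.19 ± 0.0807 in ASCL2-hairpin cells and -0.09 ± 0.0807 in WiNTRLINC1-hairpin cells (limma adjusted p = 0.0993 and 0.514). For AGR3 (ENSG00000173467, chromosome 7) ASCL2-hairpin cells held 362 and 389 untreated and 313 and 311 with doxycycline, and WiNTRLINC1-hairpin cells 243 and 240 untreated and 208 and 211 with doxycycline. Treated libraries lay below untreated ones in each line. Its log2 fold changes were -0.27 ± 0.122 and -0.20 ± 0.122 (limma adjusted p = 0.128 and 0.291).

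Of the sensors, only ERN2 fell with doxycycline in both lines, and ERN1 and ATF6 were called in neither. The values of ERN2 (ENSG00000134398, chromosome 16) were 2811 and 2724 without and 2206 and 2249 with doxycycline in ASCL2-hairpin cells, against 1832 and 1705 without and 1357 and 1280 with it in WiNTRLINC1-hairpin cells. The treated libraries lay below the untreated ones in each line, and the lines did not overlap. ERN2, the IRE1 form of mucous epithelium, fell 1.24-fold in ASCL2-hairpin cells (log2 fold change -0.31 ± 0.0769, limma adjusted p = 0.00726) and 1.34-fold in WiNTRLINC1-hairpin cells (log2 fold change -0.42 ± 0.0769, limma adjusted p = 0.00125). The call in ASCL2-hairpin cells were lost, by limma adjusted p, without treated replicate 1 (0.0541) of ASCL2-hairpin cells. PLK1, on the other strand, overlaps 0.84% of its exon length and had log2 fold changes of -0.69 and -0.03. ERN1 (ENSG00000178607, chromosome 17) stood at 287 and 329 in the untreated and 289 and 306 in the treated libraries of ASCL2-hairpin cells, and at 379 and 418 untreated and 421 and 384 treated in WiNTRLINC1-hairpin cells. ERN1, the widely expressed IRE1, had log2 fold changes of -0.05 ± 0.123 and 0.01 ± 0.123 (limma adjusted p = 0.821 and 0.958), with overlapping groups in each line. For ATF6 (ENSG00000118217, chromosome 1) ASCL2-hairpin cells held 940 and 945 untreated and 834 and 782 with doxycycline, and WiNTRLINC1-hairpin cells 1345 and 1511 untreated and 1523 and 1672 with doxycycline. ATF6 had -0.22 ± 0.0903 in ASCL2-hairpin cells and 0.16 ± 0.0903 in WiNTRLINC1-hairpin cells (limma adjusted p = 0.0844 and 0.251). Treated ATF6 values lay below the untreated ones in ASCL2-hairpin cells and above them in WiNTRLINC1-hairpin cells.

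The transcription factors XBP1 and CREB3L1 changed in ASCL2-hairpin cells, in opposite directions. The values of XBP1 (ENSG00000100219, chromosome 22) were 4088 and 4842 without and 5605 and 6704 with doxycycline in ASCL2-hairpin cells, against 5744 and 5697 without and 5533 and 5606 with it in WiNTRLINC1-hairpin cells. The untreated ASCL2 libraries were the lowest of the 8. XBP1 rose 1.38-fold in ASCL2-hairpin cells (log2 fold change 0.46 ± 0.0931, limma adjusted p = 0.00189), and in WiNTRLINC1-hairpin cells its log2 fold change was -0.04 ± 0.0931 (limma adjusted p = 0.839). These gene-level values do not separate the spliced from the unspliced messenger. CREB3L1 (ENSG00000157613, chromosome 11) stood at 172 and 122 in the untreated and 62 and 60 in the treated libraries of ASCL2-hairpin cells, and at 39 and 31 untreated and 46 and 38 treated in WiNTRLINC1-hairpin cells. The untreated ASCL2 libraries were the highest, the treated ones lay between, and the WiNTRLINC1 groups overlapped at the bottom. CREB3L1, a membrane-bound factor related to ATF6, fell 2.35-fold in ASCL2-hairpin cells (log2 fold change -1.23 ± 0.256, limma adjusted p = 0.00231), the largest fall among the 29 genes. Its log2 fold change with the other hairpin was 0.26 ± 0.256 (limma adjusted p = 0.562) at values of at most 46.

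In ER-associated degradation the ligase rose while its adaptor fell in ASCL2-hairpin cells. For SYVN1 (ENSG00000162298, chromosome 11) ASCL2-hairpin cells held 1379 and 1323 untreated and 2496 and 2657 with doxycycline, and WiNTRLINC1-hairpin cells 1703 and 1672 untreated and 2184 and 2118 with doxycycline. Treated libraries lay above untreated ones in each line, and the treated ASCL2 libraries were the highest. SYVN1 encodes HRD1, the membrane ubiquitin ligase of this pathway, and rose 1.91-fold in ASCL2-hairpin cells (log2 fold change 0.93 ± 0.0758, limma adjusted p = 6.18e-07) and 1.27-fold in WiNTRLINC1-hairpin cells (log2 fold change 0.35 ± 0.0758, limma adjusted p = 0.00455). Its exons overlap MRPL49, on the other strand, over 6.48% and FAU, on the same strand, over 7.24% of their length. Strand alone would not separate reads in the FAU overlap. MRPL49 and FAU had log2 fold changes of 0.25 and 0.11 in ASCL2-hairpin cells and 0.23 and 0.09 in WiNTRLINC1-hairpin cells. The values of SEL1L (ENSG00000071537, chromosome 14) were 1196 and 1353 without and 902 and 776 with doxycycline in ASCL2-hairpin cells, against 764 and 838 without and 839 and 898 with it in WiNTRLINC1-hairpin cells. The untreated ASCL2 libraries stood above the other 6. SEL1L, the adaptor that holds HRD1 stable and brings substrates to it, fell 1.52-fold in ASCL2-hairpin cells (log2 fold change -0.60 ± 0.103, limma adjusted p = 0.000525), and its log2 fold change was 0.12 ± 0.103 in WiNTRLINC1-hairpin cells (limma adjusted p = 0.502). HERPUD1 (ENSG00000051108, chromosome 16) stood at 2094 and 2128 in the untreated and 1289 and 1514 in the treated libraries of ASCL2-hairpin cells, and at 1459 and 1475 untreated and 1254 and 1317 treated in WiNTRLINC1-hairpin cells. HERPUD1, a membrane protein that gathers the HRD1 complex, fell 1.51-fold in ASCL2-hairpin cells (log2 fold change -0.60 ± 0.0875, limma adjusted p = 0.000155). Its log2 fold change in WiNTRLINC1-hairpin cells were -0.19 ± 0.0875 (limma adjusted p = 0.158), and treated libraries lay below untreated ones in each line.

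Of the derlins and EDEM1, DERL1 rose in ASCL2-hairpin cells and EDEM1 in WiNTRLINC1-hairpin cells. For DERL1 (ENSG00000136986, chromosome 8) ASCL2-hairpin cells held 1594 and 1499 untreated and 2083 and 2115 with doxycycline, and WiNTRLINC1-hairpin cells 1048 and 1108 untreated and 1106 and 1219 with doxycycline. The treated ASCL2 libraries were the highest. DERL1, a channel component of the exit route to the cytosol, rose 1.36-fold in ASCL2-hairpin cells (log2 fold change 0.44 ± 0.0834, limma adjusted p = 0.00118), and its log2 fold change in WiNTRLINC1-hairpin cells were 0.11 ± 0.0834 (limma adjusted p = 0.436). The values of EDEM1 (ENSG00000134109, chromosome 3) were 1294 and 1275 without and 1235 and 1184 with doxycycline in ASCL2-hairpin cells, against 1224 and 1204 without and 1480 and 1404 with it in WiNTRLINC1-hairpin cells. EDEM1, which marks misfolded glycoproteins for disposal, rose 1.19-fold in WiNTRLINC1-hairpin cells (log2 fold change 0.25 ± 0.0797, limma adjusted p = 0.0423) and had -0.09 ± 0.0797 in ASCL2-hairpin cells (limma adjusted p = 0.471). The call of EDEM1 was lost, by limma adjusted p, without treated replicate 1 (0.0587) or treated replicate 2 (0.0585) of ASCL2-hairpin cells, or untreated replicate 1 (0.106), untreated replicate 2 (0.138), treated replicate 1 (0.21) or treated replicate 2 (0.0931) of WiNTRLINC1-hairpin cells. DERL2 (ENSG00000072849, chromosome 17) stood at 594 and 512 in the untreated and 571 and 597 in the treated libraries of ASCL2-hairpin cells, and at 443 and 461 untreated and 454 and 496 treated in WiNTRLINC1-hairpin cells. DERL2 had log2 fold changes of 0.08 ± 0.109 and 0.07 ± 0.109 (limma adjusted p = 0.633 and 0.735). Its groups overlapped in each line.

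Of the SEC61 channel, the beta subunit rose in ASCL2-hairpin cells and the pore subunit was called in neither line. For SEC61B (ENSG00000106803, chromosome 9) ASCL2-hairpin cells held 1499 and 1535 untreated and 2537 and 2455 with doxycycline, and WiNTRLINC1-hairpin cells 958 and 901 untreated and 1054 and 1047 with doxycycline. The treated ASCL2 libraries stood above the other 6. SEC61B, the small beta subunit, rose 1.64-fold in ASCL2-hairpin cells (log2 fold change 0.72 ± 0.0788, limma adjusted p = 1.05e-05), and in WiNTRLINC1-hairpin cells its log2 fold change was 0.18 ± 0.0788 (limma adjusted p = 0.144). The values of SEC61A1 (ENSG00000058262, chromosome 3) were 8585 and 8130 without and 8456 and 8391 with doxycycline in ASCL2-hairpin cells, against 13972 and 14554 without and 16379 and 16250 with it in WiNTRLINC1-hairpin cells. WiNTRLINC1-hairpin cells were higher in every library. SEC61A1, the pore subunit, had log2 fold changes of 0.01 ± 0.0673 in ASCL2-hairpin cells and 0.19 ± 0.0673 in WiNTRLINC1-hairpin cells (limma adjusted p = 0.922 and 0.0589). RUVBL1, which overlaps 7.32% of its exon length from the other strand, had -0.04 and 0.27.

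In ASCL2-hairpin cells, 9 of the 29 tested genes rose and 4 fell with doxycycline. DNAJB9, SYVN1, SEC61B, HSP90B1, DNAJC3, XBP1, DERL1, CANX and PDIA3 rose, and CREB3L1, SEL1L, HERPUD1 and ERN2 fell. That is 44.8% of the 29, against 26.6% of all 22100 genes tested, of which 13.9% rose and 12.7% fell. Of the 8438 tested genes whose mean value is 500 or more, a level that 26 of the 29 reach, 45.2% were called, so the members' share was near that of genes of like abundance. The median log2 fold change of the 29 was 0.11, against 0.01 for all genes. The groups did not overlap for 21 of the 29, and for 60.6% of all genes. Without limma's mean-variance trend CANX, PDIA3, XBP1 and ERN2 were no longer called (limma adjusted p = 0.0644, 0.0735, 0.067 and 0.0627), and the other 9 were called under every setting tried.

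In WiNTRLINC1-hairpin cells, 9 of the 29 rose and 3 fell. DNAJB9, PDIA6, HSPA5, SDF2L1, PDIA3, MANF, SYVN1, HSP90B1 and EDEM1 rose, and HYOU1, ERN2 and PDIA4 fell. That is 41.4% of the 29, against 18.6% of all genes tested, of which 9.54% rose and 9.03% fell, and 32.5% of genes whose mean value is 500 or more. The median log2 fold change was 0.16, against 0.01 for all genes. The groups did not overlap for 22 of the 29 and for 54.8% of all genes. DNAJB9, PDIA6, PDIA3, HYOU1 and ERN2 were called under every setting tried, and PDIA3 was just under the threshold in its weakest setting. Without the mean-variance trend the limma adjusted p was 0.0755 for HSPA5, 0.0549 for PDIA4, 0.0601 for SYVN1, 0.106 for HSP90B1, 0.118 for SDF2L1, 0.162 for MANF and 0.122 for EDEM1.

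**Figure D2:**
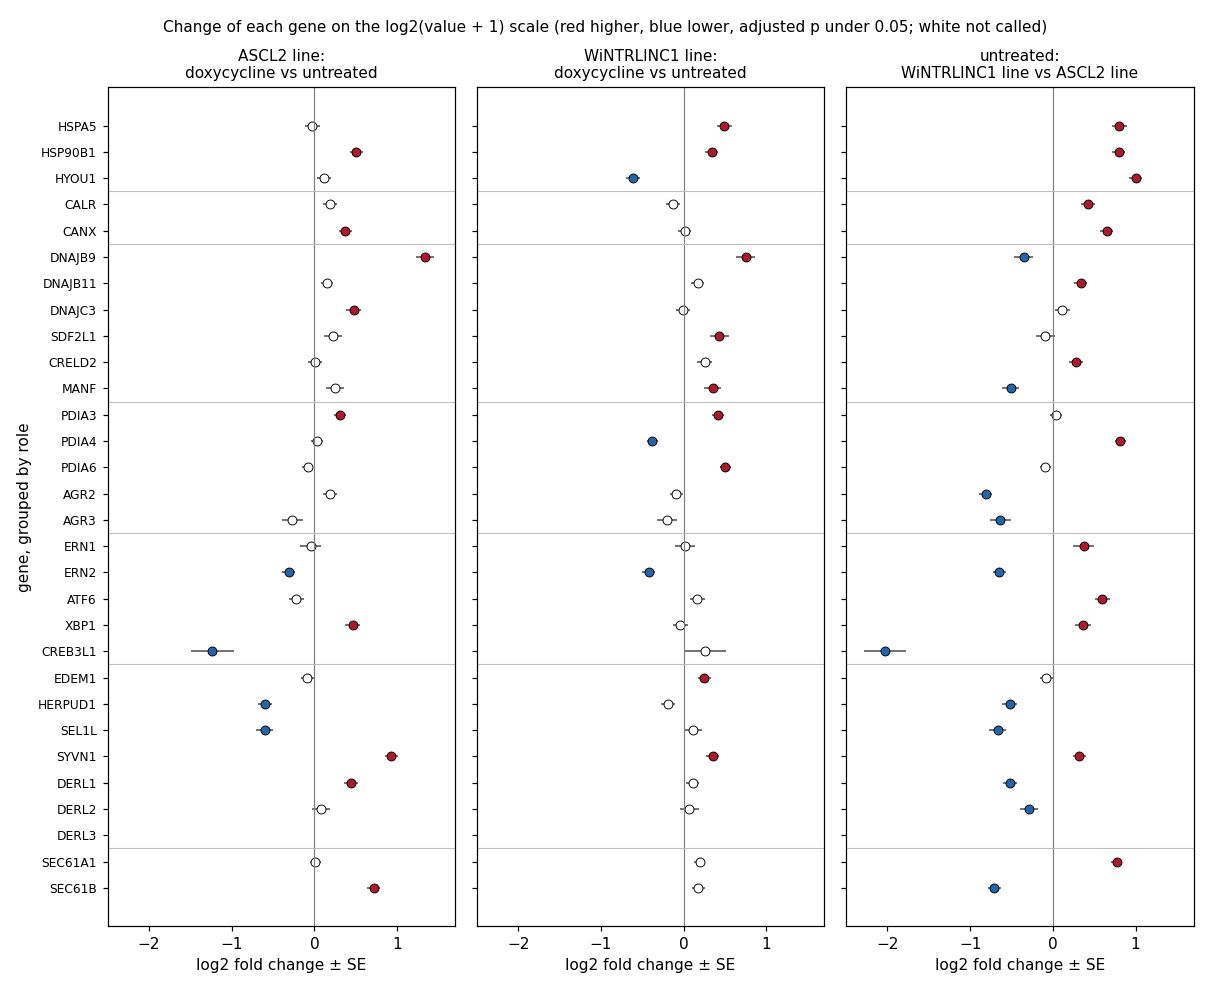
Log2 fold change ± SE of each gene on the log2(value + 1) scale, with doxycycline in the ASCL2 line (left), with doxycycline in the WiNTRLINC1 line (middle) and between the untreated lines (right). Filled points passed an adjusted p under 0.05, red higher and blue lower, and white points did not. HSP90B1, DNAJB9, PDIA3 and SYVN1 are red and ERN2 is blue in both doxycycline panels, and DERL3 was not tested.

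Across the 2 lines, which have separate untreated libraries, HSP90B1, DNAJB9, PDIA3 and SYVN1 rose in both and ERN2 fell in both. Another 15 genes were called in 1 line only, 0 were called in opposite directions, and CALR, DNAJB11, CRELD2, AGR2, AGR3, ERN1, ATF6, DERL2 and SEC61A1 were called in neither. Of all genes tested 26.6% were called in ASCL2-hairpin cells and 18.6% in WiNTRLINC1-hairpin cells. How all genes divide in this way was not counted, so the division is not shown to be particular to the members. Whether the responses themselves differed was tested as the WiNTRLINC1 response minus the ASCL2 response. They differed for 13 of the 29 genes (44.8%), against 15% of all genes tested and 26.9% of those whose mean value is 500 or more. The WiNTRLINC1 response was the higher one for 5 genes (7.39% of all genes) and the lower one for 8 (7.6% of all genes). The difference was 0.52 ± 0.13 on the log2 scale for HSPA5 (limma adjusted p = 0.0132) and 0.58 ± 0.0936 for PDIA6 (limma adjusted p = 0.000602). It was 0.72 ± 0.145 for SEL1L, 1.49 ± 0.362 for CREB3L1 and 0.40 ± 0.124 for HERPUD1 (limma adjusted p = 0.00327, 0.011 and 0.0391). Among the 8 lower ones it was -0.73 ± 0.116 for HYOU1, -0.58 ± 0.107 for SYVN1 and -0.54 ± 0.111 for SEC61B (limma adjusted p = 0.000549, 0.00173 and 0.00387). The other 5 were DNAJB9 (-0.59 ± 0.159), XBP1 (-0.50 ± 0.132), DNAJC3 (-0.48 ± 0.126), PDIA4 (-0.41 ± 0.0993) and CANX (-0.36 ± 0.112), with limma adjusted p from 0.0114 to 0.0419. Only PDIA6 and SYVN1 were called here under every setting tried, and SYVN1 was just under the threshold in its weakest setting. The calls of PDIA6, SYVN1, HYOU1, SEC61B and SEL1L stood with any 1 library left out. By limma adjusted p, that of CREB3L1 was lost without untreated replicate 1 (0.066) of ASCL2-hairpin cells, and that of PDIA4 without treated replicate 2 (0.0506) of ASCL2-hairpin cells, or treated replicate 1 (0.0507) of WiNTRLINC1-hairpin cells. The call of HSPA5 was lost without untreated replicate 1 (0.07) or treated replicate 2 (0.0773) of ASCL2-hairpin cells, or untreated replicate 1 (0.0666) or treated replicate 2 (0.0722) of WiNTRLINC1-hairpin cells. The other 5 depended on more libraries. The call of HERPUD1 stood only without treated replicate 2 of ASCL2-hairpin cells (otherwise 0.0714 to 0.179), and that of XBP1 only without untreated replicate 2 or treated replicate 1 of ASCL2-hairpin cells (otherwise 0.0505 to 0.103). CANX was still called only without treated replicate 2 of ASCL2-hairpin cells or untreated replicate 1 or treated replicate 2 of WiNTRLINC1-hairpin cells (otherwise 0.0859 to 0.184), and with quantile normalization its difference was -0.20 (0.294). DNAJB9 was still called only without untreated replicate 2 of ASCL2-hairpin cells or untreated replicate 1 or treated replicate 2 of WiNTRLINC1-hairpin cells (otherwise 0.0704 to 0.0995). For DNAJC3 these libraries were untreated replicate 1 of ASCL2-hairpin cells and untreated replicate 1 and treated replicate 2 of WiNTRLINC1-hairpin cells (otherwise 0.0509 to 0.0795). Leaving out 1 library at a time gave 7 to 10 called genes in place of 13, and 7 were called without untreated replicate 1 of ASCL2-hairpin cells or treated replicate 1 of WiNTRLINC1-hairpin cells, and 8 without treated replicate 2 of ASCL2-hairpin cells.

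Before any doxycycline, the lines already differed in most of these genes. This comparison shares its untreated libraries with both doxycycline comparisons. Of the 29 genes, 13 were higher and 11 lower in untreated WiNTRLINC1-hairpin cells than in untreated ASCL2-hairpin cells (82.8%), against 55.2% of all genes tested and 69.1% of those whose mean value is 500 or more. The values did not overlap for 26 of the 29, and for 75.7% of all genes. All 3 soluble chaperones and both lectin chaperones were higher, with log2 differences of 1.00 ± 0.0821 for HYOU1, 0.80 ± 0.0918 for HSPA5, 0.80 ± 0.0786 for HSP90B1, 0.65 ± 0.0793 for CANX and 0.42 ± 0.0847 for CALR. Also higher were PDIA4 (0.82 ± 0.0702), SEC61A1 (0.77 ± 0.0673), ATF6 (0.60 ± 0.0903), ERN1 (0.37 ± 0.123) and XBP1 (0.36 ± 0.0931). The smallest of the higher calls were DNAJB11 (0.33 ± 0.0758), SYVN1 (0.32 ± 0.0758) and CRELD2 (0.28 ± 0.0892). The limma adjusted p of these 13 ran from 1.02e-07 to 0.0186.

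Lower in untreated WiNTRLINC1-hairpin cells were AGR2 (-0.81 ± 0.0807) and ERN2 (-0.65 ± 0.0769), genes of mucous epithelium. AGR3 (-0.63 ± 0.122) and the factor CREB3L1 (-2.03 ± 0.256) were lower too. Of the 6 tested degradation genes 4 were lower, HERPUD1 (-0.52 ± 0.0875), SEL1L (-0.67 ± 0.103), DERL1 (-0.52 ± 0.0834) and DERL2 (-0.29 ± 0.109). The others were SEC61B (-0.71 ± 0.0788), MANF (-0.51 ± 0.105) and DNAJB9 (-0.35 ± 0.112). The limma adjusted p of these 11 ran from 7.46e-07 to 0.0369. THAP5 and PNPLA8, which overlap DNAJB9, were lower too (-0.37 and -0.45, limma adjusted p = 0.00622 and 0.000844). RUVBL1, which overlaps the higher SEC61A1, was also higher (0.63, limma adjusted p = 6.83e-05). FAU and MRPL49, which overlap the higher SYVN1, had -1.42 and -0.15. The part of overlapping reads in these differences was not tested. DNAJC3, SDF2L1, PDIA3, PDIA6 and EDEM1 were not called. With its pseudogene copies added, PDIA3 summed to 9721 to 9758 in untreated ASCL2-hairpin cells and 10948 to 11715 in untreated WiNTRLINC1-hairpin cells, a log2 ratio of group means of 0.218 with no overlap. The lower AGR2, AGR3 and ERN2 stood beside a goblet gene sum that was higher in this line. Of the 16 tested goblet cell genes 11 were higher and 4 lower, with log2 differences from -5.31 to 4.88. Among genes whose mean value is 500 or more, 34% were higher and 35.2% lower. MUC2 and MUC5AC, given next, were among the higher ones. MUC2, the main mucin of the colon, held 849 and 807 in untreated ASCL2-hairpin cells and 14633 and 14085 in untreated WiNTRLINC1-hairpin cells. MUC5AC, a gastric type mucin, held 177 and 131 against 4492 and 4546. Calls that 1 left-out library ended were DERL2 without untreated replicate 1 (0.259), treated replicate 1 (0.0503) or treated replicate 2 (0.0505) of ASCL2-hairpin cells, or untreated replicate 1 (0.133) or untreated replicate 2 (0.0714) of WiNTRLINC1-hairpin cells. DNAJB9 was not called without untreated replicate 2 (0.0884) of ASCL2-hairpin cells, or untreated replicate 1 (0.115) of WiNTRLINC1-hairpin cells, and ERN1 without untreated replicate 1 (0.135) of ASCL2-hairpin cells, or untreated replicate 2 (0.119) of WiNTRLINC1-hairpin cells. CRELD2 was not called without untreated replicate 2 (0.106) of ASCL2-hairpin cells, or untreated replicate 1 (0.106) of WiNTRLINC1-hairpin cells, and XBP1 without untreated replicate 1 (0.0701) of ASCL2-hairpin cells. With quantile normalization DNAJB9 had -0.20 (0.143) and DERL2 -0.17 (0.187). These numbers in brackets are limma adjusted p.

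Read by promoter, some of the 7 genes with ERSE were called in every comparison. In ASCL2-hairpin cells 3 of the 7 rose (HSP90B1, CANX and XBP1) and in WiNTRLINC1-hairpin cells 3 rose (HSPA5, HSP90B1 and PDIA6). Between the untreated lines 6 were higher in WiNTRLINC1-hairpin cells, and PDIA6 was not called. Among genes whose mean value is 500 or more, 25.4%, 17.1% and 34% were called higher in these 3 comparisons. The difference of the responses went both ways, with 2 of the 7 higher (HSPA5 and PDIA6) and 2 lower (CANX and XBP1) in WiNTRLINC1-hairpin cells. Of the 3 genes with ERSE-II, HERPUD1 fell in ASCL2-hairpin cells, SDF2L1 rose and HYOU1 fell in WiNTRLINC1-hairpin cells, so the motif did not go with 1 direction. Outside the members, 12 tested genes hold ERSE in the same window, and 4 rose and 1 fell in ASCL2-hairpin cells while 0 rose and 1 fell by limma in WiNTRLINC1-hairpin cells. Between the untreated lines 3 of the 12 were higher and 4 lower in WiNTRLINC1-hairpin cells, and the difference of the responses was higher for 0 and lower for 3. These are counts of few genes, and the motif was read from a reference sequence. The 12 genes are also not all separate from the members. ALG12 is 1 of them, and its exons overlap those of CRELD2 on the other strand over 3.25% of the CRELD2 exon length. It rose in ASCL2-hairpin cells (0.32, limma adjusted p = 0.0146) and was lower in untreated WiNTRLINC1-hairpin cells (-0.31, limma adjusted p = 0.0069). Whether both genes share 1 element was not tested.

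Partner genes in 1 complex or pathway changed their proportion to each other, given here as ratios of values within each library, not corrected for gene length. The 4 pairs were chosen after their values were seen, so they carry no test. The ratio of HSPA5 to HYOU1 was 3.1 and 3.1 in untreated ASCL2-hairpin cells, 3.0 and 2.64 in the treated ones, 2.65 and 2.77 in untreated WiNTRLINC1-hairpin cells and 5.56 and 6.1 in the treated ones. The 6 other libraries lay between 2.64 and 3.1, well under the treated WiNTRLINC1 pair. The ratio of PDIA6 to PDIA4 was 1.51 and 1.57 untreated and 1.45 and 1.41 treated in ASCL2-hairpin cells, and 0.796 and 0.845 untreated and 1.49 and 1.53 treated in WiNTRLINC1-hairpin cells. Here the untreated WiNTRLINC1 libraries lay apart from the other 6. The ratio of SYVN1 to SEL1L was 1.15 and 0.978 untreated and 2.77 and 3.42 treated in ASCL2-hairpin cells, against 2.23 and 2.0 untreated and 2.6 and 2.36 treated in WiNTRLINC1-hairpin cells. The ratio of SEC61A1 to SEC61B was 5.73 and 5.3 untreated and 3.33 and 3.42 treated in ASCL2-hairpin cells, and between 14.6 and 16.2 in all 4 libraries of WiNTRLINC1-hairpin cells.

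**Figure D3:**
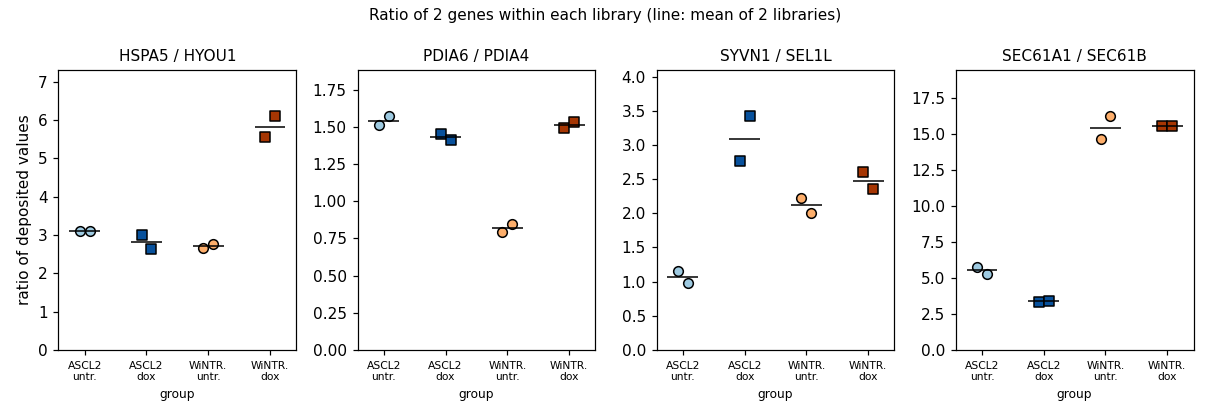
Ratio of the deposited values of 2 genes within each library, not corrected for length, with 1 panel per pair, 1 point per library and a line at the mean of each group of 2. The HSPA5 to HYOU1 ratio is highest in the treated WiNTRLINC1 libraries (5.56 and 6.1), and the PDIA6 to PDIA4 ratio is lowest in the untreated ones (0.796 and 0.845).

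Other genes of the same pathways were read as lists, by the number called and the median log2 fold change, which over all genes tested was 0.01 with either hairpin. Among genes whose mean value is 500 or more, 25.4% rose and 19.8% fell with the ASCL2 hairpin, and 17.1% and 15.4% with the WiNTRLINC1 hairpin, and several of the counts below lie near these shares. In the arm of PERK, the sensor that slows translation, and its factor ATF4, 3 of 15 rose and 2 fell in ASCL2-hairpin cells, and 0 rose and 3 fell in WiNTRLINC1-hairpin cells, with medians of 0.34 and -0.02. Without treated replicate 1 of ASCL2-hairpin cells, 7 rose there. In both states of ASCL2-hairpin cells several genes of this list were higher in replicate 2 than in replicate 1. Others, such as EIF2AK3, were not. Replicates 1 and 2 of CHAC1 held 291 and 846 untreated and 327 and 1201 treated, and those of DDIT4 1457 and 3011 and 1085 and 2299. Such spread widens the standard error (0.464 for CHAC1), so genes of this list that were not called may still have changed. EIF2AK3, which encodes PERK, held 543 and 567 untreated and 914 and 821 treated in ASCL2-hairpin cells, and 473 and 540 untreated and 343 and 387 treated in WiNTRLINC1-hairpin cells. It rose in ASCL2-hairpin cells (log2 fold change 0.64 ± 0.111, limma adjusted p = 0.000613) and fell in WiNTRLINC1-hairpin cells (log2 fold change -0.47 ± 0.111, limma adjusted p = 0.00797). The fall was not called without untreated replicate 2 (limma adjusted p = 0.0818) or treated replicate 1 (0.0835) of WiNTRLINC1-hairpin cells, without the filter (0.0518) or without the mean-variance trend (0.0694). TRIB3, a pseudokinase induced by this arm, held 3197 and 4331 untreated and 6065 and 8551 treated in ASCL2-hairpin cells. In WiNTRLINC1-hairpin cells it held 2811 and 2725 untreated and 3527 and 3620 treated. It rose in ASCL2-hairpin cells (log2 fold change 0.95 ± 0.14, limma adjusted p = 0.000156). Its log2 fold change of 0.37 in WiNTRLINC1-hairpin cells was not called in the main fit. That rise was called with a replicate block within each line (limma adjusted p = 0.00229) or shared by all groups (0.0342). It was also called with only the groups compared (0.0094). ATF5, another factor of this arm, held 1543 and 1563 untreated and 1104 and 1085 treated in ASCL2-hairpin cells, and 1423 and 1339 untreated and 496 and 405 treated in WiNTRLINC1-hairpin cells, and fell in both lines, by 3.08-fold in WiNTRLINC1-hairpin cells (log2 fold change -1.62 ± 0.0992, limma adjusted p = 7.29e-08) and 1.42-fold in ASCL2-hairpin cells (log2 fold change -0.50 ± 0.0992, limma adjusted p = 0.00158). NUPR1, a small stress protein, held 8602 and 7781 untreated and 2907 and 3929 treated in ASCL2-hairpin cells, and 3781 and 2967 untreated and 2128 and 2016 treated in WiNTRLINC1-hairpin cells, and fell in both lines (log2 fold change -1.28 ± 0.127, limma adjusted p = 4.26e-06, and -0.69 ± 0.127, limma adjusted p = 0.00135). The second of these was lost without the filter (limma adjusted p = 0.0646) or the trend (0.0843). Of 16 other genes linked to ER stress 5 rose and 3 fell in ASCL2-hairpin cells, and 2 rose and 4 fell in WiNTRLINC1-hairpin cells, with medians of 0.05 and 0.02. With 1 library left out, 3 to 5 of them rose and 1 to 3 fell in ASCL2-hairpin cells, and 1 to 2 rose and 1 to 4 fell in WiNTRLINC1-hairpin cells. The fewest rises in ASCL2-hairpin cells came without untreated replicate 2 or treated replicate 2 of that line, and 1 fell without its treated replicate 1. In WiNTRLINC1-hairpin cells 1 fell without its untreated replicate 1 and 2 without its treated replicate 2, and the rises came to 1 without its untreated replicate 2, treated replicate 1 or treated replicate 2. The cytosolic heat shock genes, a separate folding response, had 1 of 18 rise and 4 fall in ASCL2-hairpin cells, and 2 rise and 3 fall in WiNTRLINC1-hairpin cells, with medians of -0.09 and -0.04. The falls in ASCL2-hairpin cells came to 2 without treated replicate 2 of that line. The rises in WiNTRLINC1-hairpin cells came to 0 by limma without untreated replicate 1 or treated replicate 2 of that line, and to 1 without its treated replicate 1. None of the 18 was called in the test of the difference between the responses by limma, with 3 at an unadjusted p under 0.05.

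Of the folding lists in ASCL2-hairpin cells, 8 of 18 oxidative folding genes rose and 3 fell, 8 of 20 genes of the calnexin cycle and N-glycosylation rose and 3 fell, and 2 of 17 cofactors of BiP and prolyl isomerases rose and 0 fell. With the WiNTRLINC1 hairpin these lists had 5 and 1, 2 and 1, and 5 and 3 genes that rose and fell. The medians of these 3 lists were 0.23, 0.21 and 0.09 in ASCL2-hairpin cells, and 0.12, -0.02 and 0.21 in WiNTRLINC1-hairpin cells. With 1 library left out, 6 to 8, 5 to 8 and 2 to 4 of them rose in ASCL2-hairpin cells, and 1 to 5, 1 to 2 and 1 to 5 in WiNTRLINC1-hairpin cells. P4HB, the founding disulfide isomerase, held 17557 and 16867 untreated and 24236 and 25022 treated in ASCL2-hairpin cells, and 24424 and 23668 untreated and 26018 and 26603 treated in WiNTRLINC1-hairpin cells, and rose in ASCL2-hairpin cells (log2 fold change 0.52 ± 0.0683, limma adjusted p = 5.99e-05). ERP29, a chaperone with the isomerase fold, held 3886 and 3439 untreated and 1776 and 2086 treated in ASCL2-hairpin cells, and 4359 and 4488 untreated and 5306 and 5626 treated in WiNTRLINC1-hairpin cells, and fell in ASCL2-hairpin cells (log2 fold change -0.93 ± 0.0881, limma adjusted p = 2.73e-06). Its rise in WiNTRLINC1-hairpin cells (log2 fold change 0.30 ± 0.0881, limma adjusted p = 0.025) was not called without any 1 of the 4 libraries of that line (limma adjusted p from 0.0672 to 0.178). The degradation list had 13 of 23 rise and 4 fall in ASCL2-hairpin cells, and 7 rise and 3 fall in WiNTRLINC1-hairpin cells, with medians of 0.25 and 0.12. In the translocation list 9 of 21 rose and 2 fell in ASCL2-hairpin cells, and 2 rose and 3 fell in WiNTRLINC1-hairpin cells, with medians of 0.20 and 0.03. With 1 library left out, 7 to 13 degradation genes rose in ASCL2-hairpin cells, the fewest without treated replicate 2 of that line, and 3 to 7 in WiNTRLINC1-hairpin cells, the fewest without treated replicate 2 of that line. Of the translocation genes 5 to 10 rose in ASCL2-hairpin cells, with 5 without untreated replicate 1 or treated replicate 1 of that line. SEC61G, the third subunit of the channel, held 985 and 1105 untreated and 576 and 499 treated in ASCL2-hairpin cells, and 1243 and 1303 untreated and 1516 and 1660 treated in WiNTRLINC1-hairpin cells. It fell in ASCL2-hairpin cells (log2 fold change -0.96 ± 0.0986, limma adjusted p = 5.7e-06), where SEC61B rose. Its rise in WiNTRLINC1-hairpin cells (log2 fold change 0.32 ± 0.0986, limma adjusted p = 0.0358) was not called without any 1 of the 4 libraries of that line (limma adjusted p from 0.0643 to 0.242). SRPRA, the alpha subunit of the signal recognition particle receptor, fell in both lines (log2 fold change -0.83 ± 0.0776, limma adjusted p = 2.22e-06, and -1.01 ± 0.0776, limma adjusted p = 5.52e-07). SRPRB, the beta subunit, rose in ASCL2-hairpin cells (log2 fold change 0.46 ± 0.0766, limma adjusted p = 0.000485). The SRPRB response was lower in WiNTRLINC1-hairpin cells (difference -0.50 ± 0.108, limma adjusted p = 0.00528).

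In the list of transport from the ER to the Golgi, 14 of 20 genes rose and 1 fell in ASCL2-hairpin cells, with a median log2 fold change of 0.45. With 1 library left out, 14 to 15 rose. With the WiNTRLINC1 hairpin 3 rose and 5 fell, with a median of -0.02, and 2 to 5 fell with 1 library left out. The fewest, 2, fell without treated replicate 1 of WiNTRLINC1-hairpin cells, and 3 fell without 1 of its other libraries. The difference between the responses was lower in WiNTRLINC1-hairpin cells for 13 of the 20 and higher for 1, against 14% and 12.9% of genes whose mean value is 500 or more, with a median of -0.42. It was lower for 9 to 13 of them with 1 library left out, and for 5 without the mean-variance trend. KDELR3, a receptor that returns chaperones such as BiP to the ER, held 1089 and 1097 untreated and 2677 and 2628 treated in ASCL2-hairpin cells, and 527 and 479 untreated and 567 and 635 treated in WiNTRLINC1-hairpin cells, and rose 2.43-fold in ASCL2-hairpin cells (log2 fold change 1.28 ± 0.0913, limma adjusted p = 1.85e-07). SEC24D, a cargo-binding coat protein of COPII vesicles, held 1165 and 1014 untreated and 2418 and 2386 treated in ASCL2-hairpin cells, and 1179 and 1285 untreated and 1164 and 1117 treated in WiNTRLINC1-hairpin cells, and rose 2.21-fold there (log2 fold change 1.14 ± 0.0887, limma adjusted p = 4.13e-07). TMED10, a cargo receptor, held 4626 and 4143 untreated and 1584 and 1528 treated in ASCL2-hairpin cells, and 3266 and 3558 untreated and 2955 and 3299 treated in WiNTRLINC1-hairpin cells, and was the 1 gene that fell (log2 fold change -1.49 ± 0.0841, limma adjusted p = 1.9e-08). KDELR2 held 3453 and 3388 untreated and 5812 and 5957 treated in ASCL2-hairpin cells, and 3157 and 3193 untreated and 2013 and 2069 treated in WiNTRLINC1-hairpin cells, and rose in ASCL2-hairpin cells (log2 fold change 0.78 ± 0.0686, limma adjusted p = 1.26e-06) and fell in WiNTRLINC1-hairpin cells (log2 fold change -0.64 ± 0.0686, limma adjusted p = 1.2e-05). In the goblet cell list 1 of 16 tested genes rose and 8 fell in ASCL2-hairpin cells, with a median of -0.53, and 5 rose and 3 fell in WiNTRLINC1-hairpin cells, with a median of 0.03. With 1 library left out, 5 to 9 fell in ASCL2-hairpin cells, with 5 without untreated replicate 1 of that line. The difference of the responses was higher in WiNTRLINC1-hairpin cells for 8 of the 16 and lower for 0 by limma, with 11 of the 16 at an unadjusted p under 0.05, against 7.39% and 7.6% of all genes tested. The 8 became 5 without treated replicate 1 of WiNTRLINC1-hairpin cells or without the filter, and 4 without the trend.

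**Figure D4:**
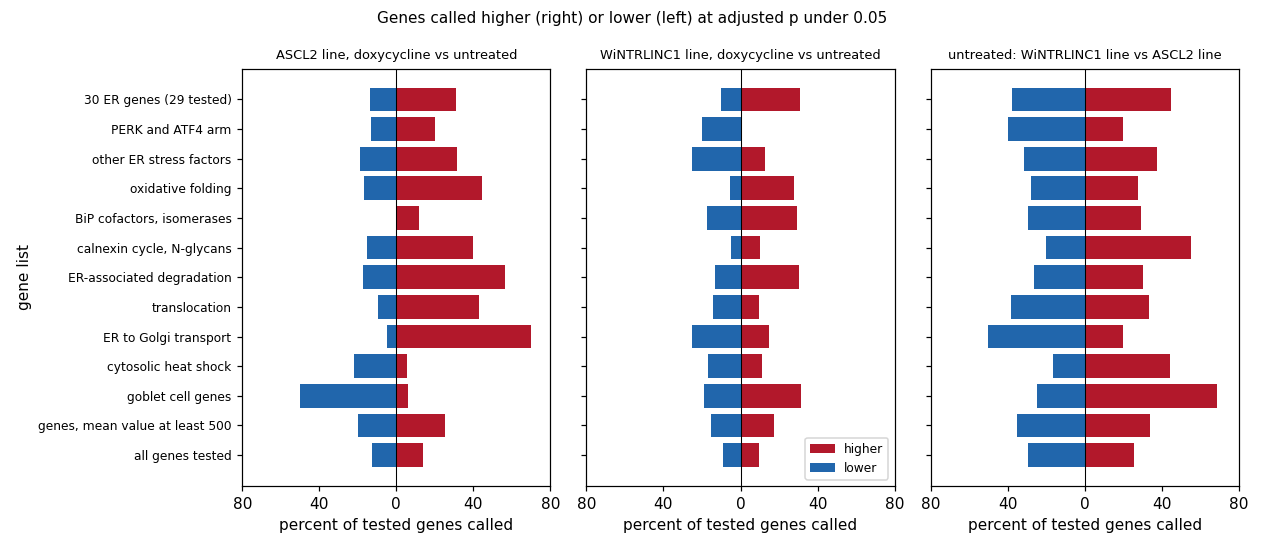
Percent of tested genes called higher (right, red) or lower (left, blue) at an adjusted p under 0.05 in each list, for doxycycline in the ASCL2 line, doxycycline in the WiNTRLINC1 line and the untreated lines. The bottom bars give all 22100 genes tested and the 8438 whose mean value is 500 or more. In the ASCL2 panel the ER to Golgi list has 14 of 20 genes to the right and the goblet cell list 8 of 16 to the left.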

How the data were processed

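Each of the 8 libraries has 1 file of gene identifiers and values. The submitters' processing notes list cutadapt, TopHat2 2.0.9, Cufflinks and DESeq, and the builds hg19, mm9 and GRCh37, giving none of them a role. No source used here gives the counting program or says whether it used strand. The deposited value is treated as a score. It is a whole number, and low whole numbers that never occur in some libraries mark it as a read count that the authors scaled and rounded, so no count model was applied. With 2 libraries per group, the spread between them limits precision, beside deposited totals of 21524463 to 22941231.

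Symbols came from the gene name table (39501 of 57736 identifiers matched). limma 3.58.1 in R 4.3.3 was fitted to log2(value + 1), using a trend of variance on mean, to 4 groups of 2 libraries and the 22100 genes that reached a value of 10 in 2 or more libraries (4 residual and 10.5 prior degrees of freedom). The pseudocount of 1 understates changes of low genes. A gene was called where its Benjamini-Hochberg adjusted p, over all genes tested, was under 0.05. The fit was tested on simulated data with planted changes and the same spread setting for all genes. These libraries need not share that spread, so the simulation does not give their error rate. Alternatives were pseudocounts of 0.5 and 10, no filter and a minimum of 50, other scalings, no trend, only the groups compared, replicate blocks and each library left out. Members and lists were chosen with earlier results of these data known. All members are accounted for, and from each list up to 3 called genes per comparison with the smallest adjusted p could be named. WiNTRLINC1 itself was not analysed here.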

Additional observations from a re-analysis of the deposited data

Results flagged for a closer look

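The responses of the lines to doxycycline differed, by limma's test of the difference itself, for 13 of the 29 tested genes (44.8%), against 15% of all genes tested and 26.9% of those whose mean value is 500 or more. All differences are the log2 response of WiNTRLINC1-hairpin cells minus that of ASCL2-hairpin cells. In WiNTRLINC1-hairpin cells the response was the higher one for CREB3L1 (1.49), SEL1L (0.72), PDIA6 (0.58), HSPA5 (0.52) and HERPUD1 (0.40). It was the lower one for HYOU1 (-0.73), DNAJB9 (-0.59), SYVN1 (-0.58), SEC61B (-0.54), XBP1 (-0.50), DNAJC3 (-0.48), PDIA4 (-0.41) and CANX (-0.36). Only PDIA6 and SYVN1 kept this call under every setting tried, SYVN1 narrowly in its weakest setting, and the rest of the 13 lost it under at least 1. DNAJB9 and SYVN1 rose in both lines and rose more in ASCL2-hairpin cells. HYOU1 and PDIA4 were the genes that fell in WiNTRLINC1-hairpin cells and were called in this test too. The lines also differed before treatment for every one of these 13 genes except DNAJC3 and PDIA6, a comparison in which 55.2% of all genes tested and 69.1% of the abundant ones were called.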

How the results depend on the processing

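Of 2175 recomputed log2 fold changes of the tested members, 2043 stayed on their side of the threshold, 108 lost a call and 24 gained one. No called value changed sign, and 38 recomputed values of genes not called did. Counts of members called without the mean-variance trend were 9 of 13 with the ASCL2 hairpin, 5 of 12 with the WiNTRLINC1 hairpin, 3 of 13 for the difference of the responses and 21 of 24 between the untreated lines. Without the filter on low values they were 13, 8, 6 and 22. No trend lets each gene's variance rest on fewer prior degrees of freedom, and the cause of the counts without the filter was not tested. Leaving out 1 library gave 13 to 14, 9 to 12, 7 to 10 and 21 to 24. Without the trend 12 ER to Golgi, 5 degradation, 4 oxidative folding, 2 calnexin cycle and 2 translocation genes rose with the ASCL2 hairpin. An arm left with 1 library was assumed to vary like the other groups. Genes called over all genes tested moved by more than 1.5 times in the following cases. With the ASCL2 hairpin 5884 became 3410 without the trend and 3665 without treated replicate 2 of that line. With the WiNTRLINC1 hairpin 4104 became 1873 without the trend, 2395 without the filter, and 2709, 2706 and 2398 without untreated replicate 1, treated replicate 1 and treated replicate 2 of that line. For the difference 3314 became 1313 without the trend and 1914 without the filter. No scaling tried moved the median of all genes by over 0.1 on the log2 scale, but scaling ended 4 calls. The CANX difference of -0.36 became -0.35, -0.30 and -0.20 (limma adjusted p = 0.0657, 0.0783 and 0.294) with median of ratios scaling, equal totals and quantile normalization. With quantile normalization the PDIA4 difference became -0.28 (0.0527), and between the untreated lines DNAJB9 went from -0.35 to -0.20 (0.143) and DERL2 from -0.29 to -0.17 (0.187). DERL2 was also lost with median of ratios scaling (-0.24, 0.0815). Scaling also added calls, of ATF6 with the ASCL2 hairpin, ATF6 and EDEM1 in the difference, and SEC61A1 with the WiNTRLINC1 hairpin, by equal totals and by quantile normalization, and of PDIA6 between the untreated lines by quantile normalization.

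A replicate block within each line gave 13, 13 and 14 members called for the ASCL2 hairpin, the WiNTRLINC1 hairpin and the difference, and a block shared by all groups gave 13, 13, 13 and 24 with the untreated lines last. The labels do not say that a number marks a shared culture or day. Deviations of same-numbered libraries correlated across genes at -0.052 with the ASCL2 hairpin and 0.105 with the WiNTRLINC1 hairpin. Over genes whose mean value is 500 or more these were -0.205 and 0.449. Several genes of the PERK and ATF4 arm nevertheless stood higher in replicate 2 than in replicate 1 in both states of ASCL2-hairpin cells. With the numbers crossed in the ASCL2 line, an alternative chosen after seeing the data, 18 members were called with the ASCL2 hairpin. Calls over all genes tested rose as well, from 5884 (26.6%) to 7164 (32.4%).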
